A study of Mus musculus with 6 samples.

Results

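Cytochrome P450 enzymes of families 1, 2 and 3 are the heme proteins of the endoplasmic reticulum that oxidise drugs and other foreign compounds, and many also act on steroids, retinoids, arachidonic acid and vitamin D. Their genes were chosen by symbol alone: every gene whose symbol begins with Cyp1, Cyp2 or Cyp3 and a subfamily letter, and which had a probe set that carried no other symbol. The rule found 54 of the 19550 genes with a value, and 48 of the 54 passed the filter on low values that was applied before testing. A further 7 genes of these families (Cyp2a4, Cyp2a5, Cyp2c40, Cyp2c69, Cyp3a41a, Cyp3a41b and Cyp3a59) lay only on probe sets that several P450 genes share, of which there were 5. Those probe sets were kept apart from the 54 genes.

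In hepatocytes these enzymes take electrons from NADPH through P450 oxidoreductase, helped by cytochrome b5, and depend on heme. Their genes are classic targets of ligand-activated receptors: the aryl hydrocarbon receptor (AhR) for family 1, the constitutive androstane receptor CAR (Nr1i3) for Cyp2b and several Cyp2c genes, and the pregnane X receptor PXR (Nr1i2) for Cyp3a. Growth hormone, acting through STAT5b, sets a large sex difference in several members of mouse liver, and many are confined to hepatocytes around the central vein. Ascorbic acid (AA, vitamin C) deficiency has long been studied for its effect on hepatic P450 content in guinea pigs, which cannot make the vitamin.

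Each of 6 Affymetrix Mouse Gene 1.0 ST arrays held liver RNA, with 2 arrays in each of 3 groups of male C57BL/6NCrSlc mice. SMP30 (senescence marker protein 30, encoded by Rgn) is the gluconolactonase (GNL) that mice use to make AA, so SMP30/GNL KO mice depend on AA from food or water. The AA-deficient knockouts received neither, the AA-supplemented knockouts drank water with AA and EDTA at a level described as keeping tissue AA normal, and the wild-type mice, which make their own AA, drank water without vitamin C. All 3 groups ate the same AA-deficient chow (CL-2). The labels give neither the age of the mice nor the length of the diet, nor whether the other groups also drank EDTA. AA and EDTA therefore cannot be told apart where the knockouts are compared. In AA-supplemented knockouts against wild type, the loss of SMP30 cannot be told apart from EDTA or from AA given in water. Whether the 2 arrays of a group stand for separate animals is not said in the labels, and the p-values therefore reflect the spread of these samples alone, part of which may be technical.

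Values are given as deposited, in log units whose base is not stated. They spanned -0.58 to 2.51, and folds are printed on the log10 reading, under which that span would be 1213-fold; if the values were log2 it would be 8.48-fold and every printed fold smaller. The probe sets of different genes respond differently, so levels are compared between arrays for 1 gene and not between genes. Differences were tested with limma over 14662 genes with all 6 arrays in 1 fit, and "passed" means a Benjamini-Hochberg adjusted p under 0.05 over those genes. The values of both arrays of a group are printed in place of a mean and SD, and the standard error (SE) beside a difference is that of limma's fit. In liver pieces, a change in the number of cells of a type and a change in RNA per cell cannot be told apart.

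Rgn checked the labels of genotype: it was at 0.23 and 0.30 in AA-deficient knockouts, 0.34 and 0.14 in AA-supplemented knockouts and 2.07 and 2.0 in wild type. Its values in the knockout groups overlapped, so it did not check which knockouts received AA. The 7 hepatocyte markers with a value, among them Apob, Ahsg and Hnf4a, averaged 2.07 to 2.23 on the 6 arrays, the highest of these in AA-supplemented knockout 2. Markers of lymphocytes averaged 0.08 to 0.34, of pancreas 0.17 to 0.30 and of cholangiocytes 0.23 to 0.36. The SD of the difference between the 2 arrays of a group, over all genes tested, was 0.104 in AA-supplemented knockouts, 0.0794 in AA-deficient knockouts and 0.0788 in wild type.

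The proximal promoters of 45 of the 54 genes are listed by RefSeq (GRCm38.p6), and the 250 bases before the start site are shown for some of the genes named below. They are Cyp2b10, the member with the largest fall, Cyp3a25, a member that rose, the neighbours Cyp2a5 and Cyp2a22, and the neighbours Cyp2c29, Cyp2c39 and Cyp2c38. Cyp2d37-ps and Cyp2u1, which also passed against wild type, were not among the 45. Capitals mark the box TATAAA of core promoters, the nuclear receptor half-site AGGTCA and the core GCGTG of the element that AhR and Arnt bind, each on either strand. No match overlapped another in these windows. RefSeq lists 2 start sites for Cyp3a25 and 2 for Cyp2c39, and the first listed was used.
Cyp2b10 (chr7:25897408-25897657, plus strand): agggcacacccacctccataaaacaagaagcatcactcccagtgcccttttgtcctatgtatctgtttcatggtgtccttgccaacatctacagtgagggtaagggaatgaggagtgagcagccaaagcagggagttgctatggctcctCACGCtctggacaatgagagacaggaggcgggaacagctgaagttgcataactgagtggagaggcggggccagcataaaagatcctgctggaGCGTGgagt
Cyp3a25 (chr5:146009619-146009868, minus strand): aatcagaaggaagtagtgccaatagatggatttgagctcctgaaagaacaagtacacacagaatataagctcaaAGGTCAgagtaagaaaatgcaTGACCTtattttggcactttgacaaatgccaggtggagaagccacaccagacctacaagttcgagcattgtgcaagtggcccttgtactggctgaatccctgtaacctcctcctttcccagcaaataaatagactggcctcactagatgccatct
Cyp2a5 (chr7:26835089-26835338, plus strand): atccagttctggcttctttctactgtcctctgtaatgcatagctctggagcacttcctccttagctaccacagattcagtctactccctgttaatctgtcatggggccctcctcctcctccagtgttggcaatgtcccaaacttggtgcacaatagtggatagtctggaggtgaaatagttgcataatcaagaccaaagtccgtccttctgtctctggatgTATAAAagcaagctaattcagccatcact
Cyp2a22 (chr7:26939387-26939636, minus strand): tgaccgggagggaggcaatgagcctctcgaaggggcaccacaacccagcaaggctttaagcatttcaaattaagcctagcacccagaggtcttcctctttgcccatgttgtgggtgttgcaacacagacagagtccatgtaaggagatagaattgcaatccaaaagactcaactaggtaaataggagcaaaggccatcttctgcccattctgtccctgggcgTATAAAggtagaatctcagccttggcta
Cyp2c29 (chr19:39286835-39287084, plus strand): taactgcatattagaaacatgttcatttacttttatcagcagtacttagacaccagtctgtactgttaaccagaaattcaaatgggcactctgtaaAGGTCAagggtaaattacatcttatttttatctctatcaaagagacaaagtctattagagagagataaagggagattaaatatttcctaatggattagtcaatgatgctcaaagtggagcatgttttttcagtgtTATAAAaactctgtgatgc
Cyp2c39 (chr19:39347096-39347345, plus strand): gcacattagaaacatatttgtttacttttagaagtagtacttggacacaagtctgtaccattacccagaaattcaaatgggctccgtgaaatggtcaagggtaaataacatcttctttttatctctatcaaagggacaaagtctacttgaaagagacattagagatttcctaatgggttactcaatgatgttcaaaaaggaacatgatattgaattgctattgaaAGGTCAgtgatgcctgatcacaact
Cyp2c38 (chr19:39463076-39463325, minus strand): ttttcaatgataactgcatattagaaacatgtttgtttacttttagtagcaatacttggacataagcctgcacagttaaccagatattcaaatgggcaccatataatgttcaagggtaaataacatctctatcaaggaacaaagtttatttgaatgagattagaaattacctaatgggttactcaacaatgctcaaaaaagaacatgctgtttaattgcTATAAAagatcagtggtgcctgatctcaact

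The box TATAAA was written in 21 of the 45 member promoters (46.7%), against 13.0% of 27025 promoters of the same length. It began at position -29 in Cyp2a5, -28 in Cyp2a22, -31 in Cyp2c38 and -19 in Cyp2c29, counted from the start site. The half-site AGGTCA was in 14 member promoters (31.1%) and in 13.8% of all, and Cyp3a25 held 2 copies, beginning at -176 and -155 on opposite strands. The half-site AGTTCA was in 3 member promoters (6.67%) against 11.9% of all. The core GCGTG was in 9 member promoters (20%) and 28.2% of all, with 2 copies in Cyp2b10, at -101 and -9. ATTGAT, a core bound by Onecut factors, was in 8 (17.8%) against 6.97%, and TTCNNNGAA, the STAT element, in 2 (4.44%) against 7.18%. Only 3 member promoters, those of Cyp1b1, Cyp2r1 and Cyp2s1, held 10 or more CpG pairs, a number reached by 38.2% of all promoters. These matches describe letters in a short window. The phenobarbital-responsive and xenobiotic-responsive enhancers of such genes lie farther upstream and were not searched here.

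Cyp2c39 and Cyp2c38 were 75.8% identical over their aligned windows, Cyp2c39 and Cyp2c29 74.1%, and Cyp2c38 and Cyp2c29 68.8%. In Cyp2c39, AGGTCA began at -25, whereas Cyp2c38 held TATAAA at -31 and no AGGTCA. The neighbours Cyp2a5 and Cyp2a22 were 50.6% identical.

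**Figure D1:**
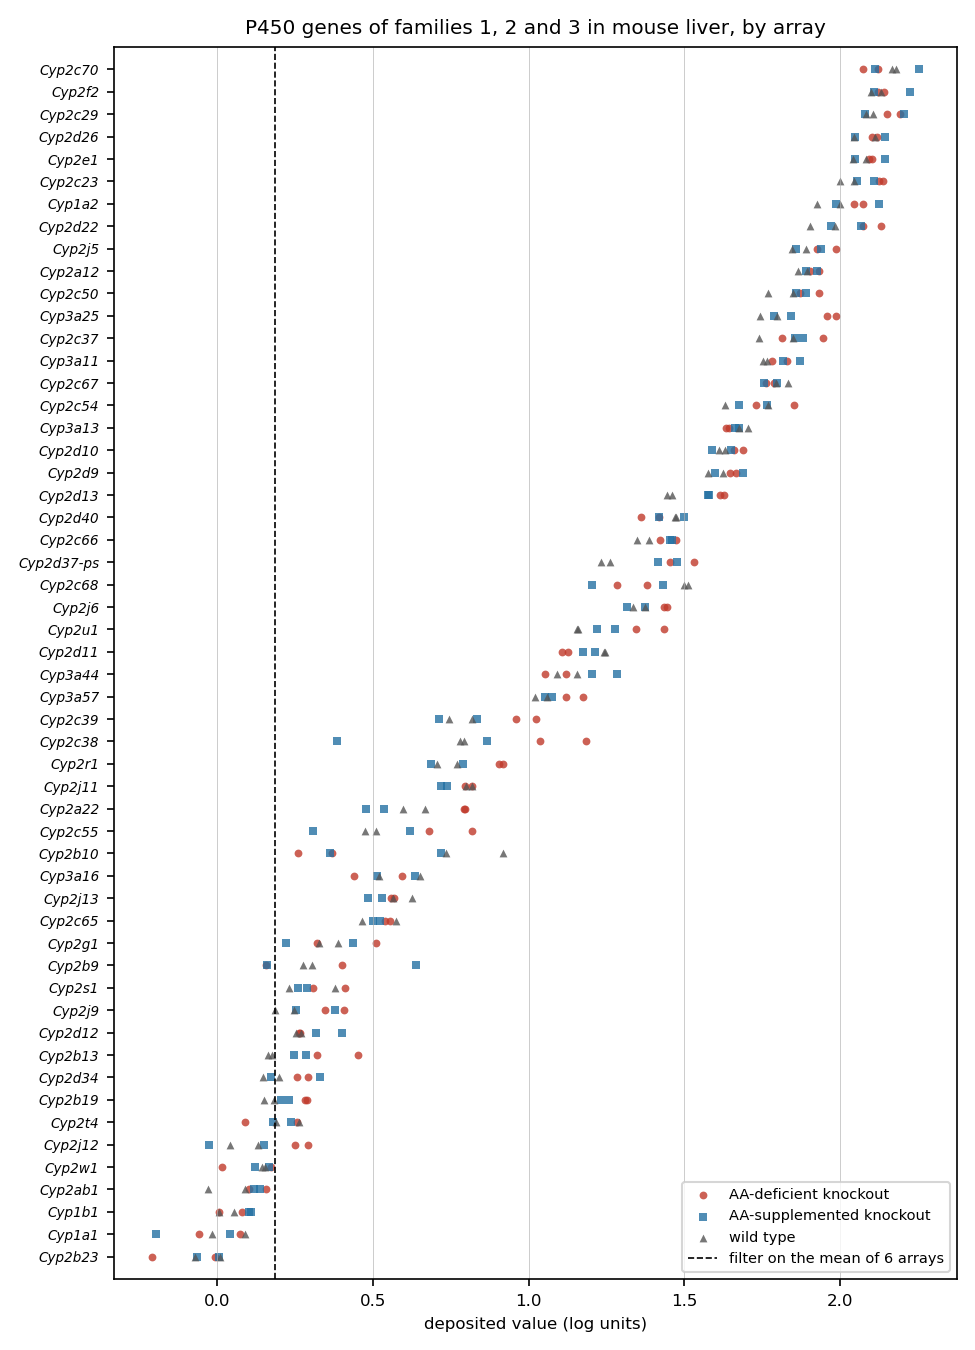
Deposited values (log units, horizontal axis) of the 54 P450 genes on the 6 arrays, ordered by their mean only for readability. Points are arrays (circles AA-deficient knockout, squares AA-supplemented knockout, triangles wild type) and the dashed line is the filter at 0.185, below which the means of 6 genes lie. Most genes in the upper part show 6 points close together, while Cyp2c38, Cyp2c55 and Cyp2b10 are spread out.

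In the plot of values by array, the 6 members left untested because their mean fell below 0.185 were Cyp1a1, Cyp1b1, Cyp2ab1, Cyp2b23, Cyp2j12 and Cyp2w1. No detection call was used here, so whether they were above background is not known. Of these 6, Cyp2j12 was at 0.29 and 0.25 in AA-deficient knockouts, 0.15 and -0.03 in AA-supplemented knockouts and 0.13 and 0.04 in wild type. Its AA-deficient arrays were the 2 highest.

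AA-deficient knockouts lack both SMP30 and AA, and they were compared with wild type first. In this contrast 3 P450 genes rose and 1 fell. The pseudogene Cyp2d37-ps, the fatty acid hydroxylase gene Cyp2u1 and the steroid and drug oxidase gene Cyp3a25 rose by 0.20 to 0.24 log units, and Cyp2b10, the classic phenobarbital- and CAR-induced P450 of mouse liver, fell by 0.51. Called members were 4 of 48 (8.33%), where 4.63% of all genes tested were called. By direction, 3.08% of all genes were called higher and 1.55% lower. Over all 48 members the median difference was 0.067, with 35 above 0 and 13 below, whereas the median of all genes was -0.0034 and 48.5% of them were above 0. At an unadjusted p under 0.05 there were 15 members higher and 3 lower, where 20.4% of all genes passed it. The groups did not overlap for 34 members, 27 higher and 7 lower, and among all genes 27.6% did not overlap with AA-deficient knockouts higher and 26.9% with them lower. The 4 calls lay close to the threshold, and each was lost when any 1 of the 2 AA-deficient or 2 wild-type arrays was left out, which leaves 1 array in that group. In these fits the share called among all genes fell too, from 4.63% to 0.962% and 0.593% without AA-deficient replicate 1 and 2, and to 0.00682% without either wild-type array. With quantile or cyclic loess normalisation 2 members rose and 0 fell, and with each array centred on its median 1 rose and 1 fell, where 5.08%, 5.61% and 3.64% of all genes were called. With a mean-dependent variance (eBayes with a trend) 8 members passed, and with the robust form of it 9, beside 8.67% and 8.95% of all genes. The median absolute difference over the 48 members was 0.084, beside 0.057 for all genes tested.

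Cyp2b10 was at 0.37 and 0.26 in AA-deficient knockouts, 0.72 and 0.36 in AA-supplemented knockouts and 0.73 and 0.92 in wild type. Both wild-type arrays were above both AA-deficient arrays. The AA-supplemented arrays lay apart, 1 close to the lower wild-type array and 1 inside the AA-deficient range. Both AA-deficient values lay below 0.383, the median of the means of all genes, and how far they stood above background is not known. The fall was 0.51 (SE 0.111, adjusted p = 0.0458), or 3.25-fold lower on the log10 reading. After quantile or cyclic loess normalisation it was -0.52 (adjusted p = 0.0544) and -0.51 (adjusted p = 0.0508), no longer past the threshold. Between AA-supplemented knockouts and wild type the difference was -0.29 (SE 0.111, adjusted p = 0.427).

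Cyp3a25 is 1 of several mouse genes of the Cyp3a subfamily, whose enzymes hydroxylate steroids and many drugs. It was at 1.99 and 1.96 in AA-deficient knockouts, 1.84 and 1.79 in AA-supplemented knockouts and 1.80 and 1.74 in wild type. The 2 AA-deficient arrays stood above the other 4. The rise over wild type was 0.20 (SE 0.0436, adjusted p = 0.0458), or 1.59-fold. It missed the threshold after quantile (0.18, adjusted p = 0.0708), cyclic loess (0.18, adjusted p = 0.0738) and median centring (0.19, adjusted p = 0.0722). The probe set shared by Cyp3a59, Cyp3a57 and Cyp3a25 was 0.19 higher (SE 0.0534, adjusted p = 0.0867), with values of 1.59 and 1.57 in AA-deficient knockouts, 1.48 and 1.34 in AA-supplemented knockouts and 1.38 and 1.40 in wild type. These genes are close copies, and signal from the transcript of one on the probes of another was not separated here.

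Cyp2u1 encodes an enzyme that hydroxylates arachidonic acid and other long fatty acids. It was at 1.35 and 1.43 in AA-deficient knockouts, 1.28 and 1.22 in AA-supplemented knockouts and 1.16 and 1.16 in wild type. The 3 groups did not overlap, with wild type lowest and AA-deficient knockouts highest. The rise over wild type was 0.23 (SE 0.0469, adjusted p = 0.0382), or 1.71-fold. With each array centred on its median it was 0.22 (adjusted p = 0.0550).

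Cyp2d37-ps is listed by RefSeq as a transcribed pseudogene of the Cyp2d cluster. It was at 1.45 and 1.53 in AA-deficient knockouts, 1.42 and 1.48 in AA-supplemented knockouts and 1.26 and 1.23 in wild type. Both wild-type arrays were below all 4 knockout arrays, and the 2 knockout groups overlapped. The rise over wild type was 0.24 (SE 0.0463, adjusted p = 0.032) in AA-deficient knockouts, or 1.76-fold. The AA-supplemented difference was 0.20 (SE 0.0463, adjusted p = 0.216). Cyp2d13, another transcribed pseudogene that is the nearest listed member before it in gene order, stood at 1.63 and 1.62 in AA-deficient knockouts, 1.58 and 1.58 in AA-supplemented knockouts and 1.45 and 1.46 in wild type. Its difference in AA-deficient knockouts was 0.17 (SE 0.0389, adjusted p = 0.0529) and in AA-supplemented knockouts 0.13 (SE 0.0389, adjusted p = 0.344). The Cyp2d genes are close copies, so a probe set named for a pseudogene may also bind transcripts of its neighbours, and this was not tested.

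The probe set shared by Cyp2a5, the coumarin hydroxylase, and Cyp2a4, a steroid hydroxylase higher in females, was at 2.13 and 2.06 in AA-deficient knockouts, 1.95 and 1.91 in AA-supplemented knockouts and 1.89 and 1.82 in wild type. The 3 groups did not overlap. Tested beside the single genes, it rose by 0.24 in AA-deficient knockouts against wild type (SE 0.0467, adjusted p = 0.0332). Between the knockouts the difference was 0.17 (adjusted p = 0.254). Which of the 2 genes moved cannot be told apart on this probe set.

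**Figure D2:**
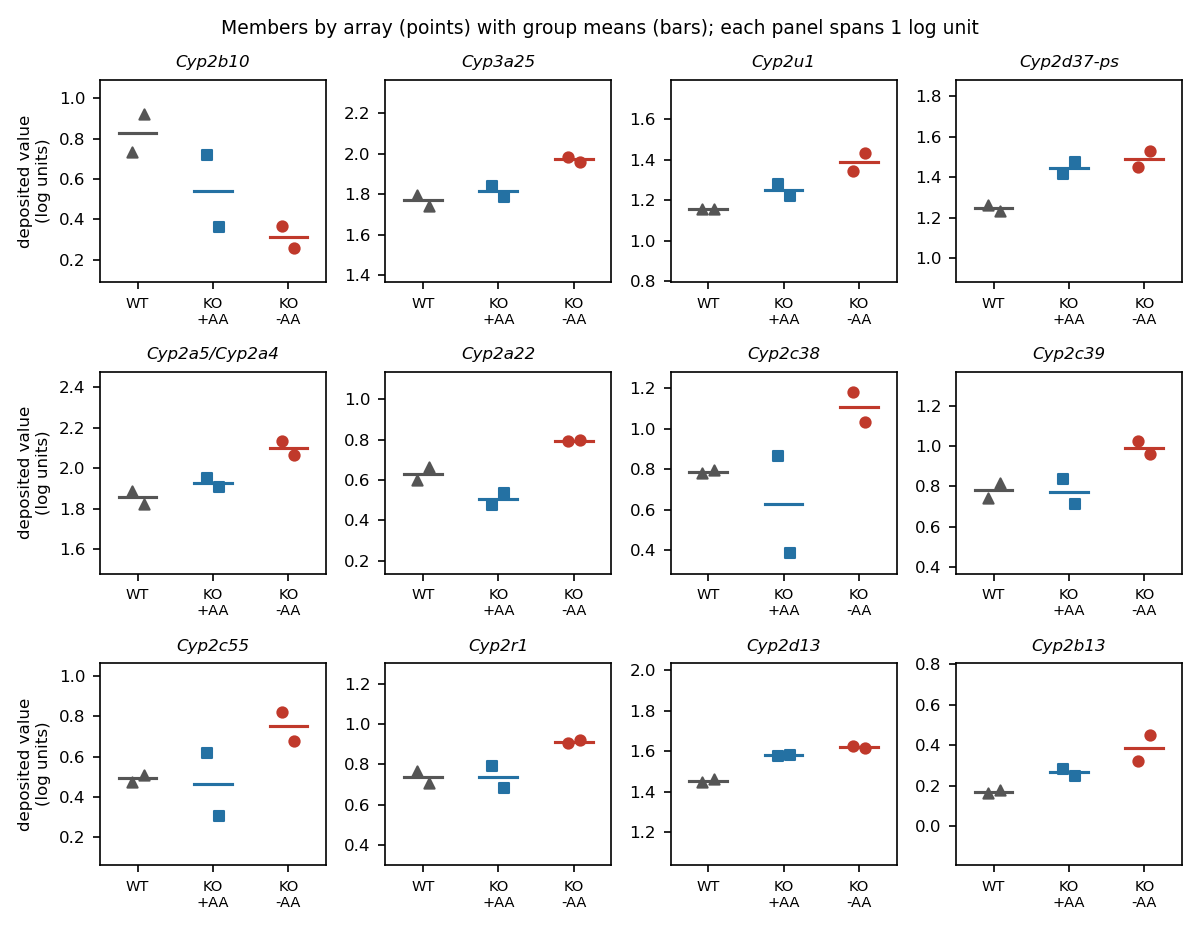
Deposited values (log units, vertical axis) on each array for 11 P450 genes and the Cyp2a5/Cyp2a4 probe set, in wild type (WT), AA-supplemented knockouts (KO +AA) and AA-deficient knockouts (KO -AA). Points are arrays, bars are group means of 2, and every panel spans 1 log unit. Cyp2b10 is highest in wild type and lowest without AA, and for Cyp3a25, Cyp2u1, Cyp2a22, Cyp2c38, Cyp2c39, Cyp2c55, Cyp2r1, Cyp2d13 and Cyp2b13 both AA-deficient points lie above the other 4.

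The plot of 12 probe sets by array shows the order of the groups. The members had high deposited values: the means of 27 of the 54 lay at or above the 90th percentile of all genes. Their median mean was 1.17, against 0.383 for all genes. The shares of all genes given here and in the other comparisons were not matched for level. Both AA-deficient arrays were above the other 4 for 15 of 48 members (31.25%), a pattern found in 14.1% of all genes. They were below the other 4 for 3 members (6.25%) against 11.3% of all genes: Cyp2d11, Cyp2d40 and Cyp3a13. Both wild-type arrays were the lowest for 10 members (20.8%) and 14.1% of all genes, and the highest for 4 (8.33%) and 12.9%. Both AA-supplemented arrays were the highest for 2 members (4.17%) and 4.86% of all genes, and the lowest for 3 (6.25%) and 4.52%. Members lie mostly in gene clusters and close copies may share probe sequence, so they cannot be counted as independent of each other.

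Setting the 2 knockout groups against each other keeps the genotype and changes the supply of AA. With limma, 0 of 48 members passed, where 0.205% of all genes did (0.0409% higher and 0.164% lower), and 9 members had an unadjusted p under 0.05, 8 higher and 1 lower, against 9.92% of all genes. With eBayes with a trend and with the robust form 1 member passed, Cyp2a22, where 1.05% and 1.21% of all genes did. The median difference over members was 0.032, with 34 above 0 and 14 below, against a median near 0 and 50% above 0 among all genes. The groups did not overlap for 19 members in the higher and 5 in the lower direction, beside 19.8% and 17.5% of all genes, 37.3% in both.

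Cyp2a22, a close relative of Cyp2a5, was at 0.79 and 0.80 in AA-deficient knockouts, 0.48 and 0.54 in AA-supplemented knockouts and 0.60 and 0.67 in wild type. The 3 groups did not overlap, and here wild type lay between the knockout groups. AA-deficient knockouts were above AA-supplemented knockouts by 0.29 (SE 0.0446, adjusted p = 0.0681). It passed with eBayes with a trend (adjusted p = 0.0204), with the robust form (adjusted p = 0.0165), with median centring (adjusted p = 0.0397) and under a stricter filter on low values, the 50th percentile (adjusted p = 0.0348). Against wild type AA-deficient knockouts differed by 0.16 (SE 0.0446, adjusted p = 0.0839) and AA-supplemented knockouts by -0.13 (SE 0.0446, adjusted p = 0.392). Over the 3 groups together Cyp2a22 had the lowest adjusted p of any member in limma's moderated F test, 0.0502.

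Cyp2c38 had the widest difference between the knockouts. It was at 1.18 and 1.04 in AA-deficient knockouts, 0.87 and 0.38 in AA-supplemented knockouts and 0.78 and 0.79 in wild type. Both AA-deficient arrays were the highest, and the 2 AA-supplemented arrays lay far apart, on either side of wild type. The difference between the knockouts was 0.48 (SE 0.133, adjusted p = 0.255). It was 0.72 (adjusted p = 0.0178) without AA-supplemented replicate 1 and 0.24 (adjusted p = 0.329) without AA-supplemented replicate 2. Each of these fits leaves 1 AA-supplemented array, which is assumed to vary as the arrays of the other groups do, although the 2 AA-supplemented arrays differed more than those. Against wild type it was 0.32 (SE 0.133, adjusted p = 0.221), and it passed when only the arrays of these 2 groups were fitted (adjusted p = 0.0245).

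Its neighbour Cyp2c39, whose enzyme hydroxylates retinoic acid, was at 1.02 and 0.96 in AA-deficient knockouts, 0.84 and 0.71 in AA-supplemented knockouts and 0.74 and 0.82 in wild type. Both AA-deficient arrays were above the other 4, and the other groups overlapped. The difference was 0.22 (SE 0.0553, adjusted p = 0.219) between the knockouts and 0.21 (SE 0.0553, adjusted p = 0.0739) against wild type. Cyp2c55, an arachidonic acid hydroxylase inducible through CAR and PXR, was at 0.82 and 0.68 in AA-deficient knockouts, 0.62 and 0.31 in AA-supplemented knockouts and 0.48 and 0.51 in wild type. AA-supplemented replicate 2 was again the lowest array. Its differences were 0.29 (SE 0.0946, adjusted p = 0.34) between the knockouts and 0.26 (SE 0.0946, adjusted p = 0.176) against wild type.

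Cyp2r1, the vitamin D 25-hydroxylase, was at 0.90 and 0.92 in AA-deficient knockouts, 0.79 and 0.69 in AA-supplemented knockouts and 0.77 and 0.71 in wild type. The AA-supplemented and wild-type arrays overlapped, and both AA-deficient arrays were above them. The difference was 0.17 (SE 0.0495, adjusted p = 0.274) between the knockouts and 0.17 (SE 0.0495, adjusted p = 0.0933) against wild type. On the other side, Cyp3a44, higher in female than male liver, was at 1.05 and 1.12 in AA-deficient knockouts, 1.28 and 1.20 in AA-supplemented knockouts and 1.16 and 1.09 in wild type, and AA-deficient differed from AA-supplemented knockouts by -0.16 (SE 0.0493, adjusted p = 0.313). The probe set shared by Cyp3a41b, Cyp3a44 and Cyp3a41a differed by -0.02 (adjusted p = 0.93). The one that these genes share with Cyp3a11 differed by -0.07 (adjusted p = 0.668). Cyp2b10 had the largest negative difference between the knockouts, -0.23 (SE 0.111, adjusted p = 0.574), with overlapping groups. Cyp2b9 was -0.12 (SE 0.141, adjusted p = 0.877), Cyp2d12 -0.09 (SE 0.044, adjusted p = 0.548) and Cyp2c70, which makes muricholic acids, -0.08 (SE 0.0539, adjusted p = 0.715) in the same direction.

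AA-supplemented knockouts against wild type take away SMP30 while AA is supplied. This AA came in water with EDTA, in place of the AA that wild-type mice make. With limma, 0 of 48 members passed, and 0.00682% of all genes did, namely Rgn alone. At an unadjusted p under 0.05 there were 6 members, 3 higher and 3 lower, beside 10.6% of all genes. With eBayes with a trend 0 members passed, and with the robust form 1 did, Cyp2d37-ps (adjusted p = 0.0360), beside 0.641% and 0.791% of all genes. The median difference was 0.028, with 28 members above 0 and 20 below, against -0.0017 and 49.1% above 0 for all genes, and it was 0.0050 with quantile and 0.0079 with cyclic loess normalisation. The groups did not overlap for 13 members in the higher and 7 in the lower direction, against 19.8% and 18.8% of all genes, 38.6% in both. The largest positive differences after Cyp2d37-ps were Cyp2d13, 0.13, Cyp3a44, 0.12, Cyp2b9, 0.11, and Cyp2j9, 0.10. The largest negative ones were Cyp2b10, Cyp2c68, -0.19, Cyp2c38, -0.16, Cyp2a22 and Cyp2j13, -0.09. The moderated F test over the 3 groups called 0 members, where 1.36% of all genes passed, and 14 had an unadjusted p under 0.05, beside 16.8% of all genes. With eBayes with a trend it called 7 members and with the robust form 6, beside 5.87% and 6.1% of all genes. The 3 comparisons share their arrays in pairs, so the same array enters 2 of them.

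By subfamily, the Cyp2c genes, which include epoxygenases of arachidonic acid, were the most numerous. Of 13 tested, 10 were above 0 and 3 below in AA-deficient knockouts against wild type, with a median of 0.084, and 0 passed in limma. Unadjusted, 4 had a p under 0.05 in the higher and 1 in the lower direction, and 1 passed with eBayes with a trend, beside 20.4% and 8.67% of all genes. The lower one was Cyp2c68, at 1.38 and 1.28 in AA-deficient knockouts, 1.43 and 1.20 in AA-supplemented knockouts and 1.51 and 1.5 in wild type. Both wild-type arrays were above all 4 knockout arrays, and the difference was -0.17 (SE 0.0737, adjusted p = 0.239). The probe set common to Cyp2c69, Cyp2c67, Cyp2c68 and Cyp2c40 differed by -0.07 (adjusted p = 0.425). Cyp2c23, another epoxygenase, was at 2.14 and 2.12 in AA-deficient knockouts, 2.06 and 2.11 in AA-supplemented knockouts and 2.04 and 2.0 in wild type, with a difference of 0.11 (SE 0.0423, adjusted p = 0.197) against wild type. Cyp2c70 was at 2.07 and 2.12 in AA-deficient knockouts, 2.11 and 2.25 in AA-supplemented knockouts and 2.17 and 2.18 in wild type, a difference of -0.08 (SE 0.0539, adjusted p = 0.489).

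Of the 10 Cyp2d genes tested, 8 were above 0 and 2 below in AA-deficient knockouts against wild type, with a median of 0.054. Cyp2d22, often taken as the mouse counterpart of human CYP2D6, was at 2.13 and 2.07 in AA-deficient knockouts, 1.97 and 2.07 in AA-supplemented knockouts and 1.98 and 1.90 in wild type. Both AA-deficient arrays were above the other 4, by a narrow margin over AA-supplemented replicate 2. Its difference against wild type was 0.16 (SE 0.0518, adjusted p = 0.133). Cyp2d9, the testosterone 16-alpha-hydroxylase of male liver, was at 1.67 and 1.65 in AA-deficient knockouts, 1.60 and 1.69 in AA-supplemented knockouts and 1.62 and 1.58 in wild type, a difference of 0.06 (SE 0.0462, adjusted p = 0.56) with a 95% interval of -0.05 to 0.16. Cyp2d11 was at 1.11 and 1.13 in AA-deficient knockouts, 1.21 and 1.18 in AA-supplemented knockouts and 1.25 and 1.24 in wild type, and the 3 groups did not overlap. AA-deficient knockouts were below wild type, -0.13 (SE 0.04, adjusted p = 0.12), which passed with eBayes with a trend (adjusted p = 0.0324). Cyp2d40 differed by -0.08 (SE 0.0458, adjusted p = 0.378), and Cyp2d26 by 0.03 (SE 0.0487, adjusted p = 0.765).

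The Cyp2b genes had differences of both signs. Beside the fall of Cyp2b10, Cyp2b13, higher in female than male liver, was at 0.32 and 0.45 in AA-deficient knockouts, 0.28 and 0.25 in AA-supplemented knockouts and 0.16 and 0.18 in wild type. The 3 groups did not overlap, and AA-deficient knockouts were highest. The difference against wild type was 0.22 (SE 0.0513, adjusted p = 0.0553). Its mean over the arrays was not far above the filter. Cyp2b9, also female-biased, was at 0.16 and 0.40 in AA-deficient knockouts, 0.64 and 0.16 in AA-supplemented knockouts and 0.27 and 0.30 in wild type, and the arrays within each knockout group lay far apart. Its difference against wild type was -0.01 (SE 0.141, adjusted p = 0.978). The keratinocyte P450 gene Cyp2b19 was at 0.28 and 0.29 in AA-deficient knockouts, 0.20 and 0.23 in AA-supplemented knockouts and 0.18 and 0.15 in wild type, a difference of 0.12 (SE 0.04, adjusted p = 0.142).

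Of 6 Cyp3a genes tested, 3 were above and 3 below 0 in AA-deficient knockouts against wild type, with a median of 0.0044. Cyp3a11, the main PXR-induced P450 of mouse liver, was at 1.83 and 1.78 in AA-deficient knockouts, 1.82 and 1.87 in AA-supplemented knockouts and 1.77 and 1.75 in wild type. Both wild-type arrays were the lowest, and the difference from wild type was 0.05 (SE 0.043, adjusted p = 0.617) with a 95% interval of -0.05 to 0.15. Cyp3a57 was at 1.12 and 1.17 in AA-deficient knockouts, 1.08 and 1.05 in AA-supplemented knockouts and 1.02 and 1.06 in wild type, a difference of 0.11 (SE 0.0424, adjusted p = 0.203), and Cyp3a13 differed by -0.05 (SE 0.0395, adjusted p = 0.544). The female-biased Cyp3a16 was at 0.44 and 0.59 in AA-deficient knockouts, 0.51 and 0.64 in AA-supplemented knockouts and 0.52 and 0.65 in wild type, and its groups overlapped.

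All 5 Cyp2j genes tested, which encode arachidonic acid epoxygenases, were above 0 in AA-deficient against AA-supplemented knockouts, by 0.055 to 0.094, and 0 passed in limma, with eBayes with a trend or at an unadjusted p under 0.05. Against wild type 3 were above 0 and 2 below. Cyp2j6 was at 1.44 and 1.44 in AA-deficient knockouts, 1.37 and 1.32 in AA-supplemented knockouts and 1.34 and 1.38 in wild type, with both AA-deficient arrays highest. Cyp2j9 was at 0.34 and 0.41 in AA-deficient knockouts, 0.38 and 0.25 in AA-supplemented knockouts and 0.25 and 0.18 in wild type, a difference of 0.16 (SE 0.0546, adjusted p = 0.147) against wild type, and Cyp2j5, of which kidney and liver hold much, differed by 0.09 (SE 0.0476, adjusted p = 0.344).

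Several members well known in toxicology did not pass in any comparison. Cyp1a2, the caffeine- and arylamine-oxidising member of family 1, was at 2.07 and 2.05 in AA-deficient knockouts, 1.99 and 2.13 in AA-supplemented knockouts and 2.0 and 1.93 in wild type. AA-supplemented replicate 2 was the highest array and wild type replicate 2 the lowest. The difference of AA-deficient knockouts from wild type was 0.10 (SE 0.0558, adjusted p = 0.394), with a 95% interval of -0.03 to 0.22. Cyp2e1, which oxidises ethanol and acetaminophen, was at 2.10 and 2.09 in AA-deficient knockouts, 2.05 and 2.14 in AA-supplemented knockouts and 2.08 and 2.04 in wild type, a difference of 0.04 (SE 0.0469, adjusted p = 0.727) with an interval of -0.07 to 0.15. Cyp2c29 was at 2.19 and 2.15 in AA-deficient knockouts, 2.08 and 2.21 in AA-supplemented knockouts and 2.10 and 2.08 in wild type, a difference of 0.08 (SE 0.0513, adjusted p = 0.454) with an interval of -0.04 to 0.20. The naphthalene oxidase gene Cyp2f2 differed by 0.02 (SE 0.0495, adjusted p = 0.893) and Cyp2a12 by 0.04 (SE 0.0409, adjusted p = 0.65). The median half-width of such an interval was 0.11 log units over the 48 members. Passing the adjusted threshold took more, and the smallest difference that passed was 0.20.

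The AhR-regulated genes Cyp1a1, the usual sensor of AhR ligands, and Cyp1b1 were below the filter. Cyp1a1 was at 0.07 and -0.06 in AA-deficient knockouts, -0.20 and 0.04 in AA-supplemented knockouts and -0.02 and 0.09 in wild type, and its groups overlapped. Cyp1b1 was at 0.08 and 0.00 in AA-deficient knockouts, 0.11 and 0.10 in AA-supplemented knockouts and 0.01 and 0.06 in wild type.

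Of 5 members listed as CAR or PXR targets, 1 passed in AA-deficient knockouts against wild type, the fall of Cyp2b10. Of all genes tested 4.63% passed there, 1.55% of them in the lower direction as a share of all genes. The other 4 listed members were above 0, and the median of the 5 was 0.078. Cyp2c37, one of them, was at 1.94 and 1.82 in AA-deficient knockouts, 1.88 and 1.86 in AA-supplemented knockouts and 1.85 and 1.74 in wild type, a difference of 0.08 (SE 0.0578, adjusted p = 0.476). Of 7 members of pericentral hepatocytes, 7 were above 0 against wild type in AA-deficient knockouts, and 7 in AA-supplemented knockouts. Among all genes tested 48.5% and 49.1% were above 0. In the same order, 4 and 7 of 7 hepatocyte markers were above 0. So were 5 and 6 of 7 pericentral and 4 and 3 of 4 periportal genes outside the members. The counts were 6 and 4 of 6 Kupffer cell, 4 and 2 of 6 endothelial and 2 and 3 of 6 stellate cell markers. The medians of the 7 pericentral members were 0.084 and 0.066, and in both 0 passed in limma, 0 at an unadjusted p under 0.05 and 0 with eBayes with a trend. These members include Cyp2c50, 0.09 (SE 0.0467, adjusted p = 0.318), and Cyp2c54, 0.09 (SE 0.0643, adjusted p = 0.478), in AA-deficient knockouts. Wild type replicate 2 was the lowest array for Cyp1a2, Cyp2e1, Cyp2c37, Cyp2c50, Cyp2c54 and Cyp3a11. Of 4 single-symbol members that are higher in female liver, 1 was above 0 and 3 below, with a median of -0.024, and 0 passed in limma and with eBayes with a trend, while 1, Cyp2b13, had an unadjusted p under 0.05 and passed with the robust form.

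**Figure D3:**
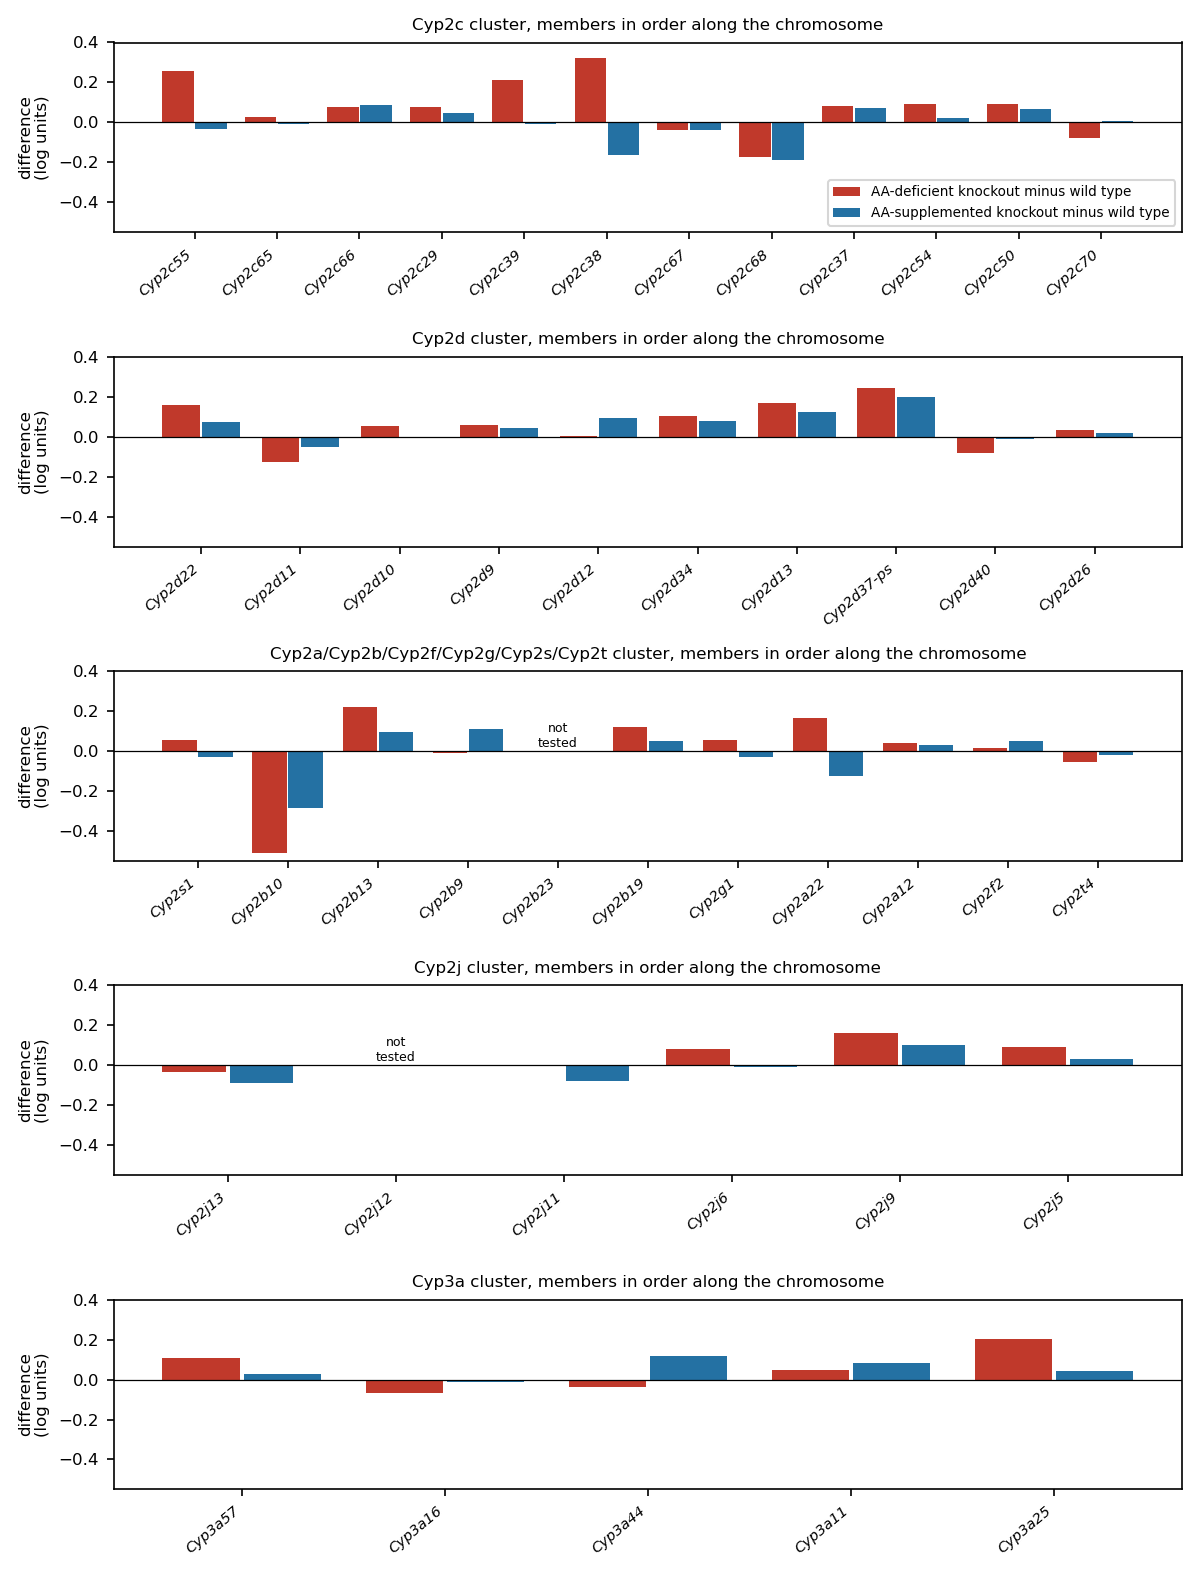
Differences of group means (log units, vertical axis) from wild type for P450 genes in 5 gene clusters, in their order along the chromosome, with 1 pair of bars per gene (red AA-deficient knockouts, blue AA-supplemented knockouts) and no error bars. In the Cyp2c cluster the tall red bars of Cyp2c39 and Cyp2c38 (0.21 and 0.32) are neighbours while Cyp2c29 beside them stands at 0.08, and in the Cyp2a and Cyp2b cluster Cyp2b10 (-0.51) points down beside Cyp2b13 (0.22).

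The members lie mostly in gene clusters, as the plot by gene order shows. Of the 12 members in the Cyp2c cluster, Cyp2c39 and Cyp2c38 are neighbours apart from a pseudogene, and both AA-deficient arrays were highest for each. Cyp2c29, next to Cyp2c39 on the other side and with a promoter window 74.1% identical to it, differed by 0.08. In the Cyp2d cluster the 2 pseudogenes Cyp2d13 and Cyp2d37-ps are near neighbours, and both wild-type arrays were lowest for each. Cyp2d40, the next member after them, differed by -0.08. In the cluster of Cyp2a, Cyp2b, Cyp2f, Cyp2g, Cyp2s and Cyp2t genes, with 10 members tested, differences from wild type ran from -0.51 for Cyp2b10 to 0.22 for Cyp2b13. Cyp2a5 and Cyp2a22 are neighbours on opposite strands. For the probe set that Cyp2a5 shares with Cyp2a4 and for Cyp2a22, AA-deficient arrays were highest, and for Cyp2a22 alone of the pair AA-supplemented arrays were below wild type. In the Cyp3a cluster Cyp3a57 and Cyp3a25 stand near opposite ends, and both AA-deficient arrays were highest for each.

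The 33 genes of other P450 families, which make bile acids, steroids and fatty acid derivatives, serve as the nearest comparison. Of 28 tested, 2 rose and 1 fell in AA-deficient knockouts against wild type, with a median of 0.018, and 17 were above 0. Those that passed were Cyp8b1, the sterol 12-alpha-hydroxylase of bile acid synthesis, by 0.37 (SE 0.0523, adjusted p = 0.0159), Cyp4f15 by 0.22 (SE 0.039, adjusted p = 0.0269) and the steroid 17-alpha-hydroxylase gene Cyp17a1 by -0.49 (SE 0.055, adjusted p = 0.00743). A difference between the family sets was not tested.

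Of the genes listed as electron donors and membrane partners, 1 passed, that of a mitochondrial protein. Cyb5b, the cytochrome b5 of the outer mitochondrial membrane, was at 1.84 and 1.76 in AA-deficient knockouts, 1.68 and 1.68 in AA-supplemented knockouts and 1.60 and 1.60 in wild type. The 3 groups did not overlap, and the rise over wild type was 0.20 (SE 0.0446, adjusted p = 0.0464). Of 8 such partners tested it was the 1 that passed, 6 were above 0, and Cyb5a, the microsomal cytochrome b5, differed by 0.02 (SE 0.0588, adjusted p = 0.917). Cyb5r3 differed by 0.06 (SE 0.0525, adjusted p = 0.588) and Pgrmc1, a heme-binding partner of P450 enzymes, by 0.03 (SE 0.0394, adjusted p = 0.783). Por was not analysed here.

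Of 11 genes of heme synthesis and breakdown, 0 passed in limma or with eBayes with a trend against wild type in AA-deficient knockouts, and 0 had an unadjusted p under 0.05. Alas1, the first enzyme of heme synthesis and a usual companion of P450 induction, was at 1.61 and 1.59 in AA-deficient knockouts, 1.56 and 1.65 in AA-supplemented knockouts and 1.63 and 1.40 in wild type, and its groups overlapped. Hmox1, which breaks heme down, was at 0.74 and 0.78 in AA-deficient knockouts, 0.97 and 0.98 in AA-supplemented knockouts and 0.69 and 0.73 in wild type. Both AA-supplemented arrays were the highest, and the F test over 3 groups passed (adjusted p = 0.0411). AA-deficient differed from AA-supplemented knockouts by -0.21 (SE 0.0407, adjusted p = 0.119), and AA-supplemented knockouts from wild type by 0.26 (SE 0.0407, adjusted p = 0.135). Both of these passed with eBayes with a trend, where 1 gene of this list was called in each.

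Among 12 xenobiotic receptors and their partners tested, 1 passed against wild type. Nr1i3, the gene of CAR, was at 1.36 and 1.36 in AA-deficient knockouts, 1.14 and 1.19 in AA-supplemented knockouts and 1.18 and 1.02 in wild type. In AA-deficient knockouts both arrays exceeded the other 4. It rose by 0.26 (SE 0.0577, adjusted p = 0.0477), whereas its classic target Cyp2b10 fell in the same comparison. Nr1i2, the gene of PXR, differed by 0.05 (SE 0.0481, adjusted p = 0.603). Ahr was at 1.17 and 1.17 in AA-deficient knockouts, 1.19 and 1.30 in AA-supplemented knockouts and 1.13 and 0.94 in wild type, a difference of 0.14 (SE 0.0676, adjusted p = 0.315) with wild type replicate 2 the lowest array. Ppara differed by 0.13 (SE 0.0412, adjusted p = 0.125) and Nr3c1, the glucocorticoid receptor gene, by 0.11 (SE 0.0422, adjusted p = 0.185).

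Of 11 liver transcription factors of P450 genes tested, 1 passed. Onecut1 (HNF6) was at 1.07 and 0.97 in AA-deficient knockouts, 1.44 and 1.45 in AA-supplemented knockouts and 1.30 and 1.43 in wild type. Both AA-deficient arrays were below the other 4. It fell by 0.34 (SE 0.0553, adjusted p = 0.0208) against wild type and by 0.42 (SE 0.0553, adjusted p = 0.045) against AA-supplemented knockouts. The second call was lost when any 1 of the 6 arrays was left out. Hnf4a, the nuclear receptor that most hepatic P450 genes depend on, was at 2.05 and 2.0 in AA-deficient knockouts, 2.01 and 2.17 in AA-supplemented knockouts and 2.01 and 1.97 in wild type, with AA-supplemented replicate 2 highest. Foxa1 differed from wild type by -0.13 (SE 0.0684, adjusted p = 0.328) and Cebpa by -0.09 (SE 0.0386, adjusted p = 0.234).

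Of 9 genes of the growth hormone pathway, 1 rose and 1 fell against wild type. Stat5b, which carries the growth hormone signal to sex-biased P450 genes, was at 1.13 and 1.14 in AA-deficient knockouts, 0.97 and 0.99 in AA-supplemented knockouts and 0.86 and 0.94 in wild type, and the 3 groups did not overlap. It rose by 0.24 (SE 0.0435, adjusted p = 0.0296). Socs2, an inhibitor of this pathway and itself induced by STAT5b, was at 0.89 and 0.80 in AA-deficient knockouts, 1.38 and 1.29 in AA-supplemented knockouts and 1.44 and 1.58 in wild type, with wild type highest and AA-deficient knockouts lowest. It fell by 0.66 (SE 0.0615, adjusted p = 0.00478) against wild type and by 0.49 (SE 0.0615, adjusted p = 0.0405) against AA-supplemented knockouts. Ghr differed from wild type by 0.11 (SE 0.0403, adjusted p = 0.185). Among 6 male-biased genes outside the members, 0 passed in limma, 3 had an unadjusted p under 0.05 and 1 passed with eBayes with a trend. Of 3 female-biased genes tested, Cyp17a1 fell.

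Of 9 targets of AhR, CAR and PXR outside the P450 genes, 1 passed. Abcc3, the basolateral exporter of glucuronides that CAR activators induce, was at 1.78 and 1.77 in AA-deficient knockouts, 1.59 and 1.48 in AA-supplemented knockouts and 1.34 and 1.34 in wild type. The 3 groups did not overlap. It rose by 0.43 (SE 0.0481, adjusted p = 0.00743) against wild type, or 2.71-fold, the opposite direction to Cyp2b10. Abcc2 differed by 0.22 (SE 0.0535, adjusted p = 0.0628). Nqo1, an AhR and Nrf2 target, differed by 0.30 (SE 0.0803, adjusted p = 0.232) between the knockouts.

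Markers that could shift with cell makeup or zone moved as follows. Of 7 pericentral genes outside the members, Lgr5 rose against wild type by 0.34 (SE 0.052, adjusted p = 0.0187), and the other 6 did not pass. Of 4 periportal genes Hal rose by 0.21 (SE 0.044, adjusted p = 0.0432). The endothelial marker Stab2, 1 of 6, rose by 0.24 (SE 0.0449, adjusted p = 0.032). Of these 6 endothelial markers 4 were above 0 and 2 below, the lowest at -0.07. Of 6 stellate cell markers 2 were above 0 and 4 below. In that list 0 passed in limma and 1 with eBayes with a trend. The 6 Kupffer cell markers averaged 0.97 and 1.06 in AA-deficient knockouts, 1.02 and 0.91 in AA-supplemented knockouts and 0.94 and 0.96 in wild type, and 0 passed in limma, at an unadjusted p under 0.05 or with eBayes with a trend. The hepatocyte markers averaged 2.12 and 2.12, 2.08 and 2.23, and 2.10 and 2.07 in the same order. Of 3 intestinal markers tested Lgals4 rose by 0.20 (SE 0.0433, adjusted p = 0.0445), while the 5 markers with a value averaged 0.39 to 0.46. Of the 3 tested, 2 were above 0 and 1 below. The lower one differed by -0.14, with an unadjusted p under 0.05 in limma. The part of cell makeup in the P450 differences was not tested.

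**Figure D4:**
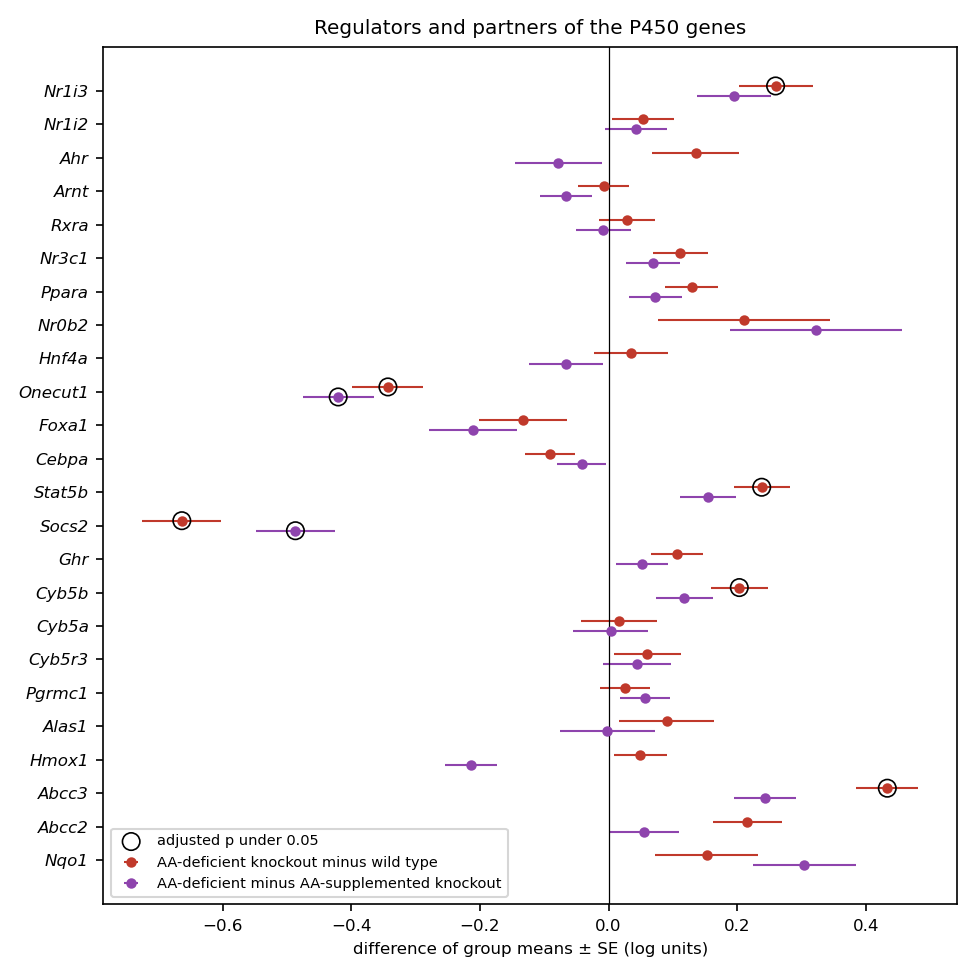
Differences of group means ± SE (log units, horizontal axis) for 24 regulators, partners and targets of the P450 enzymes, in AA-deficient knockouts against wild type (red) and against AA-supplemented knockouts (purple). Rings mark an adjusted p under 0.05 in limma. Nr1i3, Stat5b, Cyb5b and Abcc3 are ringed on the right in red, Onecut1 and Socs2 on the left in both colours.

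The plot of regulators shows that among the genes drawn only Onecut1 and Socs2 passed in both comparisons of AA-deficient knockouts, which share those 2 arrays. In AA-supplemented knockouts against wild type, 0 genes of any of these lists passed in limma. At an unadjusted p under 0.05 the xenobiotic receptor list had 1, the heme list 1, the growth hormone list 2 and the target list 3, and with eBayes with a trend 1 passed in the heme list, Hmox1.

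Most of these calls outside the P450 members rested on every array compared. Against wild type, the calls of Cyb5b, Nr1i3, Stat5b, Lgr5, Hal, Stab2, Lgals4 and Cyp4f15 were lost when any 1 of the 2 AA-deficient or 2 wild-type arrays was left out, with adjusted p of 0.0731 to 0.264 in limma. Those of Abcc3, Cyp17a1 and Socs2 were lost without either wild-type array (0.0544 to 0.108) and kept without either AA-deficient array. Cyp8b1 was lost without AA-deficient replicate 1 or either wild-type array (0.0663 to 0.114), and Onecut1 without AA-deficient replicate 2 or either wild-type array (0.108 to 0.131). Nr1i3 missed the threshold with quantile normalisation (adjusted p = 0.0556), Cyb5b with median centring (0.0637), Lgals4 with both (0.0554 and 0.0749), and Hal with quantile, cyclic loess and median centring (0.110, 0.109 and 0.0705).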

How the data were processed

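The values were taken from the series' table, 1 column per array; per the labels' protocols, ISOGEN served to extract liver RNA and a GeneChip WT kit to label it with biotin. The deposited values are taken as log10, a base that is not stated in the sources used here, nor are background correction, summarisation and normalisation. Of 34760 probe sets 30765 held values, and 21161 of these had exactly 1 gene symbol in the platform annotation. The probe set of highest mean stood for a gene. Genes at or above the 25th percentile of the mean (0.185) entered 1 linear model of group means (limma 3.58.1 under R 4.3.3, eBayes without trend), with two-sided p-values, Benjamini-Hochberg adjusted; the fit was tested on simulated data first. It had 3 residual and 4.89 prior degrees of freedom. The number of arrays limits the precision. Alternatives changed the filter, scaling, eBayes options, probe set choice and arrays. The P450 genes and the lists of partners, regulators and markers were chosen with earlier results of these data known. Named were members past the threshold, the 5 largest differences each way per comparison, the 10 of highest mean, members on the lists, and of other lists the genes that passed and up to 3 of smallest p. Promoters came from RefSeq (GRCm38.p6), searched and aligned with Biopython 1.88. The replicate numbers were not used as pairs in the main fit.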

Additional observations from a re-analysis of the deposited data

Results flagged for a closer look

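For 2 regulators the effect of the knockout against wild type differed between AA-deficient and AA-supplemented mice by limma's test of that difference, which is the same as the direct comparison of the 2 knockout groups. Onecut1 differed by -0.42 (SE 0.0553, adjusted p = 0.045), with both AA-deficient arrays below the other 4. Socs2 differed by -0.49 (SE 0.0615, adjusted p = 0.0405), again with both AA-deficient arrays below the other 4. Both were lost when any 1 of the 6 arrays was left out. With quantile normalisation both had an adjusted p of 0.0730, and with cyclic loess 0.0705 and 0.0659. For the P450 genes themselves 0 such differences passed in limma, 9 had an unadjusted p under 0.05 and 1, that of Cyp2a22, passed with eBayes with a trend.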

How the results depend on the processing

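The number of P450 genes called in AA-deficient knockouts against wild type was 4, and it was 0 with no filter, 7 with a filter at the 50th percentile, 2 with quantile normalisation, 2 with median centring, 2 with cyclic loess, 8 with eBayes with a trend, 9 with the robust form, and 8 with only the arrays compared. All 4 calls were lost when any 1 AA-deficient or wild-type array was left out. Without either AA-supplemented array more genes were called than in the main fit, both among members and among all genes. Between the knockouts the count was 0, and 1 with the 50th percentile as filter, with median centring and with eBayes with a trend or its robust form. Leaving out 1 array gave 0 to 1 there, the 1 without AA-supplemented replicate 1. In AA-supplemented knockouts against wild type it was 0, and 1 with the robust form. The F test called 0, and 3 with that filter, 1 each with quantile normalisation, median centring, cyclic loess and the mean of the probe sets of a gene, 7 with eBayes with a trend and 6 with the robust form, and leaving out 1 array gave 0 to 3. The causes were not tested. Over all genes the calls moved too: against wild type they were 679, and 173 with no filter, 1057 with the 50th percentile, 1271 and 1312 with a trend and its robust form, 1035 with only the arrays compared, and 1 without either wild-type array. The median difference over members stayed above 0 under the 18 alternatives run for each comparison. It was 0.032 between the knockouts (0.022 without AA-deficient replicate 1 to 0.054 without AA-supplemented replicate 2), 0.067 in AA-deficient knockouts against wild type (0.047 without wild type replicate 2 to 0.093 without AA-deficient replicate 2), and 0.028 in AA-supplemented knockouts against wild type (0.0050 with quantile normalisation to 0.052 without wild type replicate 1). Of the values recomputed, 0 reversed.

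With the replicate number as a block, 0 members were called in AA-deficient knockouts against wild type, and over all genes 163 in place of 679. Same-numbered arrays deviated together between AA-deficient knockouts and wild type (correlation 0.358). They deviated oppositely between the knockouts (-0.369) and between AA-supplemented knockouts and wild type (-0.284). The 25th percentile of all values was 0.177, 0.201 and 0.167 on AA-deficient replicate 1, AA-supplemented replicate 2 and wild type replicate 1. On AA-deficient replicate 2, AA-supplemented replicate 1 and wild type replicate 2 it was 0.148, 0.135 and 0.138. Whether arrays grouped in this way shared a processing step is not said in the labels and was not tested. With the AA-supplemented numbers crossed, chosen after seeing the data, the block gave 9 member calls against wild type, 1 between the knockouts and 3 in the F test. Over all genes the crossed block called 1561 against wild type in place of 679, and 75 between the knockouts in place of 30.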
